A study of Rattus norvegicus with 40 samples.

Results

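Mitosis genes encode the proteins that divide a cell: the kinases that start mitosis, the spindle and kinetochores that move the chromosomes, the checkpoint that times their separation, and the machinery that splits the cell. Of 50 listed mitosis genes, 44 were found on the array by gene symbol, each represented by its brightest probe set, among 14217 genes measured in the same way. Cdc25c, Ndc80, Kif4a, Tpx2 and Ncapg had no probe set with their symbol, and Anln was listed only on a probe set of several symbols, so these 6 genes were not measured here. RNA from 40 samples was hybridised to Affymetrix rat expression arrays, with 10 arrays for each of lung at gestational day 20 (E20), lung at E16, whole intestine at E20 and whole intestine at E16. All embryos were Wistar rats of timed matings, dissected under a microscope, with no treatment named. RNA was labelled from 2 µg for lung and 1 µg for intestine, so organ and RNA amount cannot be told apart. Tissue of several siblings was frozen according to the labels and 10 embryos were used per age according to the design text, and neither says whether an array holds RNA of 1 embryo. If arrays of an age share a litter, age and litter cannot be told apart, and p-values here measure only the spread between these arrays, which may be technical.

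Most of these genes are transcribed in a wave that starts late in S phase and peaks in G2 and mitosis, so in a whole organ their summed level is commonly used as a readout of how many cells are cycling. Mki67 and Top2a are textbook markers of dividing cells. In the embryonic lung and intestine, epithelium and mesenchyme both divide while the organ grows, and in the intestine division later becomes restricted to the bases of the forming villi. In whole organs, fewer dividing cells and less RNA per dividing cell cannot be told apart.

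The rule that lists the genes uses their symbols and no measured value, but the list was drawn up with earlier results of these data known. The genes share promoter features that the rule did not use. Many promoters of late cell cycle genes carry a short hexamer, TTTGAA or TTTAAA, known as the cell cycle genes homology region and bound in human cells by the MuvB-based protein complexes, among them DREAM, together with CCAAT boxes, which NF-Y binds. Windows of 250 bases before to 50 bases after the RefSeq transcription start (GRCr8, first listed start) were matched for 38 of the 44 genes. Both strands were searched, each match was counted once, and TTTAAA reads the same on both strands. TTTGAA was present in 27 of 38 windows (71.05%), against 12.32% of the 11700 windows of genes tested here and 18.07% of all 27457 windows in the RefSeq table. TTTAAA was present in 15 (39.47%), against 9.316% of the windows of tested genes. Either hexamer was found in 36 of 38 windows (94.74%), against 19.85% of those of tested genes, and started within the 100 bases before the transcription start in 28 (73.68%, against 6.444%). CCAAT was present in 30 windows (78.95%, against 37.29%), and 21 windows held at least 2 copies (55.26%, against 12.5%). A match of letters is a description of the window, not a site shown to be bound. The list was made of genes known to be mitotic, so these shares describe it and were not tested.

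The 250 bases before the start are shown for 6 genes chosen to show the range: the kinase gene Cdk1 and the cyclin gene Ccnb2, the marker genes Mki67 and Top2a, Cenpa, whose age change differed most between the organs, and Spc24, a window without either hexamer. Their positions in GRCr8 were Cdk1 chr20:19265043-19265292 (plus strand), Ccnb2 chr8:79981659-79981908 (minus strand), Mki67 chr1:199952594-199952843 (minus strand), Top2a chr10:84473094-84473343 (minus strand), Cenpa chr6:31431553-31431802 (minus strand), Spc24 chr8:28581300-28581549 (minus strand). Capitals mark TTTGAA or TTTAAA hexamers and CCAAT boxes, or the reverse complements TTCAAA and ATTGG, and each sequence runs 5′ to 3′ on the gene's own strand, ending at the base before the start.
Cdk1: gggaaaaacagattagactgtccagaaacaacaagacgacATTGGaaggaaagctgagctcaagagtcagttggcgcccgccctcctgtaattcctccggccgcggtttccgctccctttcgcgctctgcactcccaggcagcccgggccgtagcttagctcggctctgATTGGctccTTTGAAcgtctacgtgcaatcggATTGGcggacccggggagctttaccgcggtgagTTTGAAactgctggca
Ccnb2: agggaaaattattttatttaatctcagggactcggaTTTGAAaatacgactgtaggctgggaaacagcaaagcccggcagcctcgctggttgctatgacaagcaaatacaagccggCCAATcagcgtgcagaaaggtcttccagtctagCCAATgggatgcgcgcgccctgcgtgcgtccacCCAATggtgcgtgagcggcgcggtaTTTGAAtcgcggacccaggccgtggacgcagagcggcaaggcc
Mki67: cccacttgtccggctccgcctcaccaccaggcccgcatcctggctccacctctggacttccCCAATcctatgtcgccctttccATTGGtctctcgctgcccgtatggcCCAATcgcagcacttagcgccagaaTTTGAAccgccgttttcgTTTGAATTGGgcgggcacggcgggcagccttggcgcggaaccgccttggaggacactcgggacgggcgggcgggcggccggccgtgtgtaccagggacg
Top2a: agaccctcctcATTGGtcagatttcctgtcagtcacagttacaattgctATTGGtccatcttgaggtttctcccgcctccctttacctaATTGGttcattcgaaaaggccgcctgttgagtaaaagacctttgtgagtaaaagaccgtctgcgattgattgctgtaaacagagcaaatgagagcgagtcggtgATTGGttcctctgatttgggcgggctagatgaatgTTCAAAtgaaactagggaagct
Cenpa: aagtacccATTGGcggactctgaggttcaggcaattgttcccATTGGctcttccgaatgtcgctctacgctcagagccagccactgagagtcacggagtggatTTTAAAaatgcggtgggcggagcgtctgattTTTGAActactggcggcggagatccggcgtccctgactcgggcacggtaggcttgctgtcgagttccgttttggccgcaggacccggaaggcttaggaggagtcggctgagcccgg
Spc24: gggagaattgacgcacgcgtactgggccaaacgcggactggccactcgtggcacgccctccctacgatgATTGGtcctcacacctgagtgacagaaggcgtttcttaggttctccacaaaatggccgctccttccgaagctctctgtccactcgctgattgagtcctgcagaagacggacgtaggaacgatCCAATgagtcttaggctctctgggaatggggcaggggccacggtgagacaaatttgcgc
In the Mki67 window the second hexamer and a reverse CCAAT box share 1 base. Among all windows of the 38 genes there were 32 TTTGAA matches, 26 of them on the gene's own strand, 17 TTTAAA matches and 68 CCAAT matches. Melk, a kinase of dividing cells, and Spc24 were the 2 genes without a hexamer. The same hexamers were present in 30 of 68 windows of a list of further mitosis genes (44.12%) and in 5 of 41 windows of DNA replication genes (12.2%), a share below that of all tested genes.

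**Figure D1:**
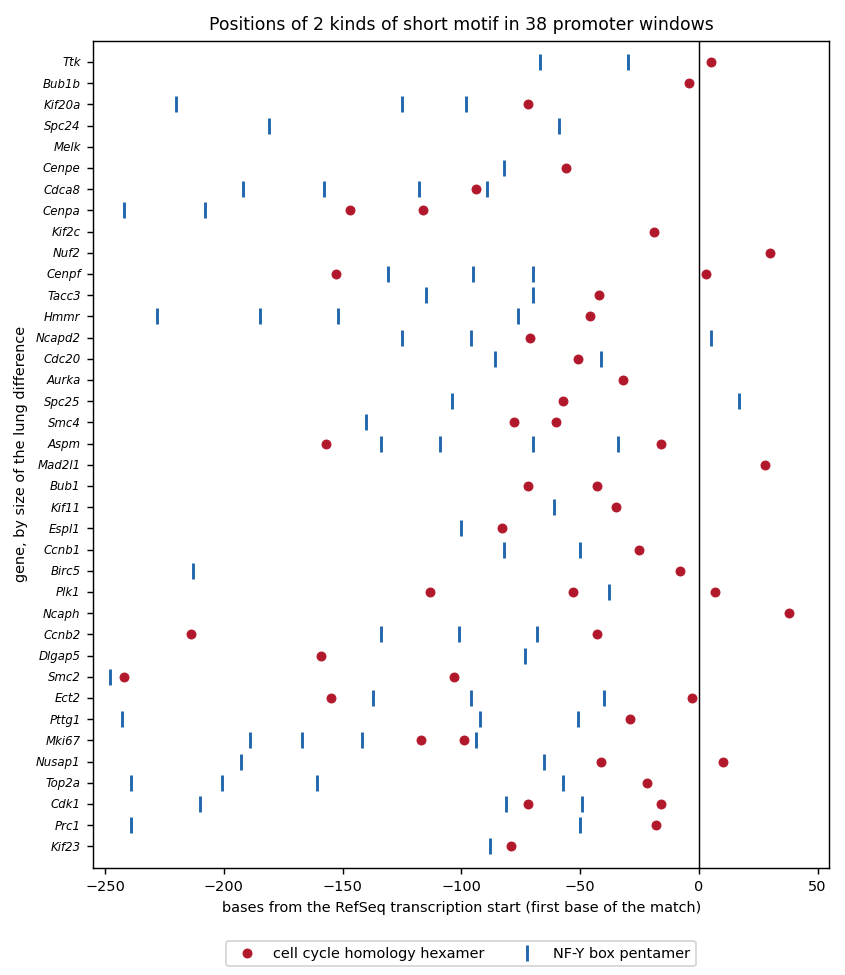
Position of each TTTGAA or TTTAAA hexamer (red points) and each CCAAT box (blue bars) on either strand, in bases from the RefSeq transcription start, for 38 mitosis genes ordered by the size of their lung difference. Hexamers lay in 36 of the 38 windows, and in 28 of them one started within the 100 bases before the start.

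A gene is said here to have risen or fallen only where limma's moderated test gave an adjusted p (Benjamini-Hochberg over all 14217 genes) under 0.05 and the change was at least 2-fold, which is 1 on the log2 scale. Genes that passed the adjusted p alone are said to lie above or below. All levels are log2 intensities, and all differences are log2 differences of group means with the standard error (SE) of the fit. Levels of different probe sets are not compared.

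In the lung, 33 of the 44 mitosis genes fell at E20 relative to E16 and none rose, against 4.63% of all genes that fell and 7.15% that rose. At the adjusted p alone all 44 lay below their E16 level (33.7% of all genes), and for all 44 every lung E20 array was below every lung E16 array, as was true of 15.9% of all genes. The median difference of the 44 genes was -1.30, against -0.0064 for all genes, and single genes ranged from -1.72 (Ttk) to -0.63 (Kif23). In the intestine none of the 44 rose or fell, against 6.26% of all genes that fell and 8.79% that rose. At the adjusted p alone 29 lay below (41.9% of all genes) and 2, Mki67 and Ect2, lay above (29.5% of all genes). The median difference in intestine was -0.26, against -0.086 for all genes.

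**Figure D2:**
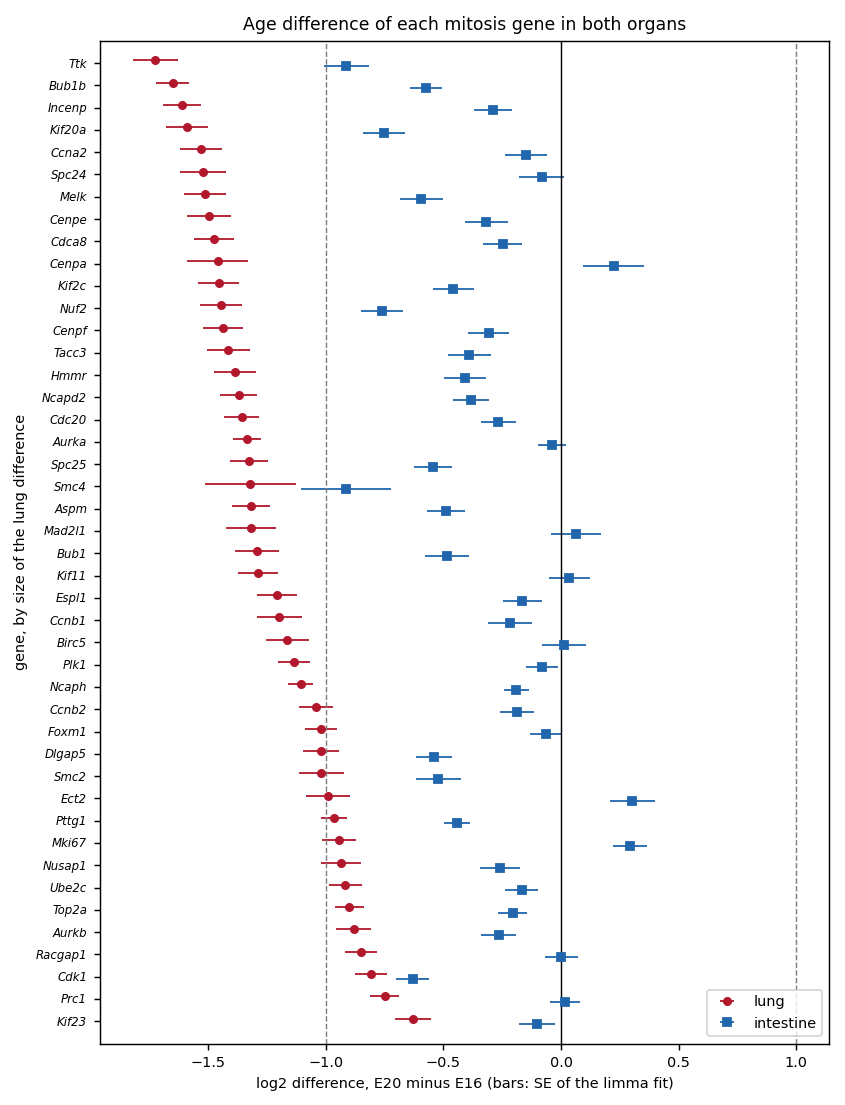
Log2 difference between E20 and E16 for each of the 44 genes in lung (red circles) and intestine (blue squares), with the SE of the limma fit and dashed lines at a 2-fold change. Lung differences ran from -1.72 to -0.63 and intestine differences from -0.92 to 0.30.

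The difference between the organs' changes was tested directly, as the lung change minus the intestine change. For 18 genes the lung change was lower by at least 2-fold and passed the test, and for none was it higher, against 8.48% and 9.13% of all genes. At the adjusted p alone 42 of 44 passed in that direction (30.9% of all genes) and none in the other (35.3% of all genes). The exceptions were Smc4 (-0.40, SE 0.27, limma adjusted p = 0.188) and Cdk1 (-0.18, SE 0.099, limma adjusted p = 0.110). The median of this difference was -0.97, against 0.032 for all genes.

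**Figure D3:**
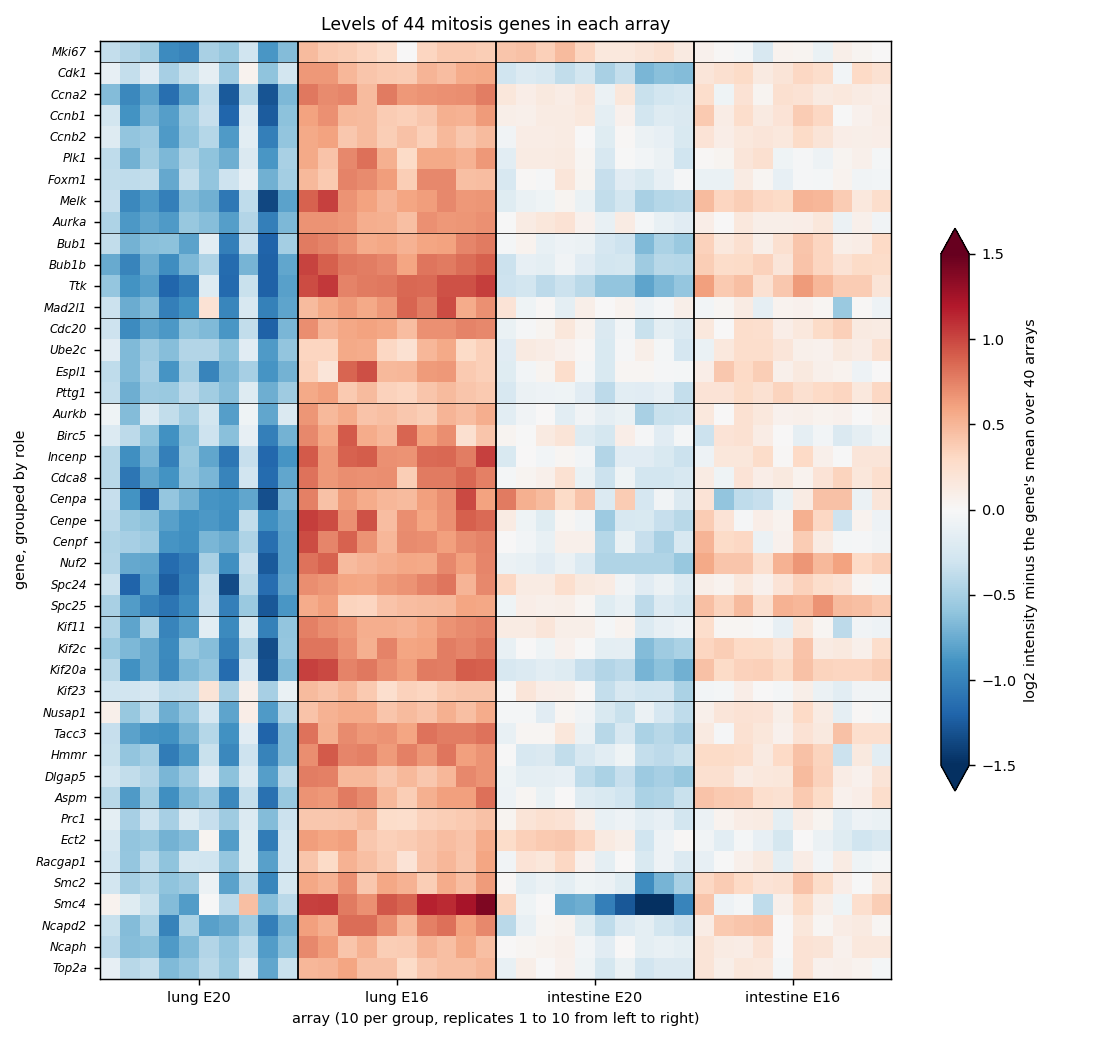
Log2 intensity of each gene minus its mean over the 40 arrays, with genes grouped by role and arrays in the order lung E20, lung E16, intestine E20 and intestine E16, replicates 1 to 10 from left to right within each. Lung E20 arrays are blue for most genes, with replicates 1, 6 and 8 paler and replicate 9 darkest, and lung E16 arrays are red.

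Array by array, the mean over the 44 genes was 9.32, 9.71 and 10.06 in lung E20 (lowest, median and highest of 10 arrays), against 10.83, 10.96 and 11.02 in lung E16. In intestine it was 9.99, 10.24 and 10.37 at E20, against 10.41, 10.47 and 10.59 at E16. Neither organ's ages overlapped in this mean, and the gap was wider in lung. The SD of the mean was 0.23 in lung E20, against 0.06 in lung E16. Lung E20 replicates 8, 1 and 6 were highest, at 10.06, 10.00 and 9.92, with 44, 43 and 37 of the 44 genes above the median of their group. Lung E20 replicate 9 was lowest, at 9.32, with 0 of 44 genes above it.

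Of those 3 arrays, replicates 1 and 8 carried raised liver genes and replicate 6 raised genes of mesothelium, the cell layer that also covers the lung itself. The mean of 14 liver genes was 8.46 in replicate 1 and 8.48 in replicate 8, against a median of 6.49 in their group, where 13 of the 14 genes averaged below the median of all values on the arrays (7.89). The mean of 9 mesothelium genes was 9.91 in replicate 6, against a group median of 9.03, and ran from 8.64 to 9.91 in lung E20, against 8.68 to 9.30 in lung E16. The part of these transcripts in the mitosis levels of the arrays was not tested. Without these 3 arrays 38 mitosis genes fell in the lung and the organs' changes differed for 25. Because these arrays were the highest in mitosis mean, leaving them out lowers the lung E20 mean and widens the fall. Shares of all genes were not counted without them. Arrays of other groups carried raised genes too. In lung E16 the cardiac muscle mean was 11.10 and 11.56 in replicates 5 and 9, against a group median of 7.39. It was 8.58 and 8.64 in replicates 2 and 7. In intestine E16, replicates 6, 8 and 9 carried raised exocrine pancreas genes. The lists checked were liver, exocrine pancreas, mesothelium, cardiac muscle and cartilage. Without all 11 arrays in which any of these lay at least 0.75 above its group median, the counts were 39 and 27. The 11 include the 3 of lung E20, and shares of all genes were not counted here either. In intestine E20, replicates 1 to 5 had mitosis means of 10.29 to 10.37 and replicates 6 to 10 of 9.99 to 10.19. The epithelium mean ran from 11.42 to 11.60 in the first of these and from 11.53 to 11.79 in the others. Other lists differed too: the smooth muscle mean ran from 11.53 to 12.23 in the first and from 11.31 to 11.72 in the others. The mean of DNA replication genes ran from 9.86 to 9.98 and from 9.68 to 9.79. Replicate numbers carry no order in the labels, and this split was not tested.

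**Figure D4:**
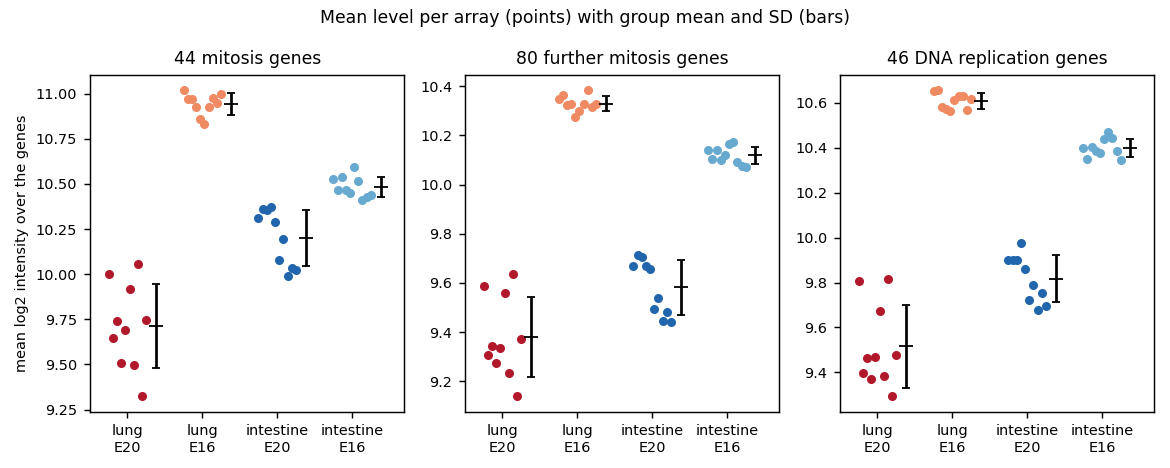
Mean log2 intensity of 44 mitosis genes, 80 further mitosis genes and 46 DNA replication genes in each array, with points in replicate order and bars giving the group mean and SD (n = 10). In all 3 panels lung E16 is highest, intestine E16 next, and the E20 groups lie below.

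Entry into mitosis is driven by Cdk1, the kinase that partners with cyclins A and B, and by the kinases and transcription factor that switch it on. Of 8 measured genes in this list, which also holds Melk, a kinase of dividing cells, 7 fell in the lung, the exception being Cdk1 itself. Ccna2, cyclin A2 of S and G2 phase, read 9.86, 10.37 and 10.78 in lung E20 (lowest, median and highest), against 11.64, 11.86 and 11.94 in lung E16. It fell by 1.53 (SE 0.089, a 2.89-fold change, limma adjusted p = 8.26e-19). In intestine Ccna2 read 10.82, 11.26 and 11.34 at E20, against 11.09, 11.30 and 11.43 at E16, ranges that overlapped (-0.15, SE 0.089, limma adjusted p = 0.132). The organs' changes differed by -1.38 (SE 0.13).

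Ccnb1, cyclin B1, read 10.12, 10.71 and 11.17 in lung E20, against 11.74, 11.87 and 12.06 in lung E16, and fell by 1.2 (SE 0.095). In intestine it read 11.10, 11.44 and 11.54 at E20, against 11.37, 11.54 and 11.77 at E16 (-0.22, SE 0.095, limma adjusted p = 0.0394), with overlapping arrays, and its other probe set stood at -0.63 there. Its relative Ccnb2 showed the same order, with -1.04 in lung (SE 0.072) and -0.19 in intestine (SE 0.072). Foxm1, the transcription factor that drives many G2 and mitosis genes, read 8.13, 8.52 and 8.78 in lung E20, against 9.26, 9.46 and 9.65 in lung E16. It fell by 1.02 (SE 0.068), close to the 2-fold limit. In intestine Foxm1 read 8.55, 8.83 and 9.07 at E20, against 8.77, 8.86 and 9.02 at E16, with no separation (-0.06, SE 0.068, limma adjusted p = 0.405).

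Cdk1 read 11.34, 11.64 and 11.997 in lung E20, against 12.33, 12.45 and 12.60 in lung E16. In intestine it read 11.26, 11.58 and 11.74 at E20, against 11.91, 12.18 and 12.25 at E16. In both organs every E20 array was below every E16 array, and the changes, -0.81 in lung and -0.63 in intestine (SE 0.070 each), stayed under 2-fold. Cdk1 had the smallest difference between the organs' changes of all 44 genes. The remaining kinases of this list fell in the lung: Plk1, the polo-like kinase, by 1.13, Aurka, the centrosomal Aurora kinase, by 1.33, and Melk by 1.51. In intestine Plk1 stood at -0.08 and Aurka at -0.04, neither of which passed the adjusted p, whereas Melk lay below (-0.59, SE 0.090), with no overlap between ages.

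The spindle checkpoint, which holds anaphase until every chromosome is attached, fell as a whole in the lung, with 4 of 4 genes. Ttk, the kinase that starts checkpoint signalling, read 9.06, 9.41 and 10.07 in lung E20, against 11.00, 11.17 and 11.32 in lung E16. Its difference was the largest of the 44 in lung (-1.72, SE 0.095, 3.30-fold lower, limma adjusted p = 1.75e-19). In intestine Ttk read 9.47, 9.77 and 9.99 at E20, against 10.46, 10.66 and 10.91 at E16, also with no overlap (-0.91, SE 0.095, limma adjusted p = 2.79e-11). Only Smc4 had a larger difference than Ttk in intestine.

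Bub1b, the checkpoint protein BubR1, read 8.998, 9.44 and 9.75 in lung E20, against 10.80, 11.01 and 11.22 in lung E16, and fell by 1.65 (SE 0.069). In intestine it read 9.67, 9.94 and 10.16 at E20, against 10.39, 10.50 and 10.63 at E16 (-0.57, SE 0.069), again without overlap. Bub1, its partner kinase, stood at -1.29 in lung and -0.48 in intestine. Mad2l1, which encodes the checkpoint effector Mad2, read 8.67, 8.93 and 9.91 in lung E20, against 10.17, 10.33 and 10.67 in lung E16, and fell by 1.32 (SE 0.11). In intestine Mad2l1 read 9.54, 9.71 and 9.90 at E20, against 9.13, 9.72 and 9.81 at E16, with overlapping arrays (0.07, SE 0.11, limma adjusted p = 0.597). Its other 2 probe sets stood at -0.35 and -0.12 in intestine, the first of them past the adjusted p (0.00612 in limma's fit of all probe sets). The organs' changes differed by -1.38 for Mad2l1 (SE 0.15) and by -0.81 for Ttk (SE 0.13).

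Anaphase is set off by the anaphase-promoting complex, a ubiquitin ligase that destroys securin and frees separase to cut the cohesin between sister chromatids. Its activator Cdc20 (-1.36, SE 0.075) and separase, Espl1 (-1.21, SE 0.083), fell in the lung. Its ubiquitin-conjugating enzyme Ube2c (-0.92, SE 0.069) and securin, Pttg1 (-0.96, SE 0.054), lay below without reaching 2-fold. In intestine Pttg1 had non-overlapping arrays (-0.44), and Cdc20 and Ube2c lay below by smaller amounts (-0.27 and -0.17). Espl1 did not pass the adjusted p there (-0.16, limma adjusted p = 0.0755).

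The chromosomal passenger complex, which corrects wrong attachments and guides cytokinesis, has the kinase Aurora B and 3 partners. Incenp, its scaffold, read 7.92, 8.27 and 8.76 in lung E20, against 9.76, 9.96 and 10.13 in lung E16, and fell by 1.61 (SE 0.081, 3.05-fold). Its further probe sets, dimmer than the median of all values on the arrays, disagreed in lung, at 0.13 and -1.46. In intestine Incenp read 8.66, 8.93 and 9.13 at E20, against 9.03, 9.28 and 9.40 at E16, with some overlap (-0.29, SE 0.081). The partners Cdca8, borealin (-1.48), and Birc5, survivin (-1.16), also fell in the lung. Aurkb, which encodes the kinase itself, read 10.22, 10.73 and 10.99 in lung E20, against 11.42, 11.52 and 11.70 in lung E16 (-0.88, SE 0.076), below 2-fold. In intestine Aurkb read 10.56, 10.90 and 11.05 at E20, against 11.05, 11.11 and 11.27 at E16 (-0.27, SE 0.076). Birc5 in intestine stood at 0.01 (SE 0.093).

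All 6 measured kinetochore and centromere genes fell in the lung. Cenpa, the histone H3 variant that marks centromeres, was dim, with a mean below the median of all values on the arrays in every group. It read 5.64, 6.12 and 6.61 in lung E20, against 7.40, 7.56 and 7.95 in lung E16, and fell by 1.46 (SE 0.13). In intestine Cenpa read 6.70, 7.29 and 7.73 at E20, against 6.36, 6.97 and 7.40 at E16 (0.23, SE 0.13, limma adjusted p = 0.118). The organs' changes differed most for Cenpa among the 44 genes (-1.69, SE 0.18, limma adjusted p = 1.21e-10).

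Spc24, Spc25 and Nuf2 encode subunits of the Ndc80 complex, which grips spindle microtubules. Spc24 read 8.96, 9.38 and 9.98 in lung E20, against 10.82, 10.97 and 11.10 in lung E16, and fell by 1.52 (SE 0.097). In intestine Spc24 read 10.09, 10.42 and 10.61 at E20, against 10.27, 10.42 and 10.64 at E16, with equal medians (-0.08, SE 0.097, limma adjusted p = 0.457). Nuf2 read 9.58, 10.05 and 10.50 in lung E20, against 11.31, 11.44 and 11.73 in lung E16, and fell by 1.45 (SE 0.090). In intestine Nuf2 read 10.27, 10.51 and 10.75 at E20, against 11.08, 11.29 and 11.50 at E16, without overlap (-0.76, SE 0.090). Spc25 stood at -1.33 in lung and -0.54 in intestine. The kinetochore motor Cenpe (-1.5) and the kinetochore protein Cenpf (-1.44) also fell in the lung, with -0.32 and -0.31 in intestine.

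Of the mitotic kinesins, 3 of 4 fell in the lung. Kif20a, which carries the passenger complex to the central spindle, read 9.75, 10.34 and 10.80 in lung E20, against 11.69, 11.84 and 12.08 in lung E16, and fell by 1.59 (SE 0.090). In intestine Kif20a read 10.34, 10.69 and 10.90 at E20, against 11.34, 11.40 and 11.50 at E16 (-0.75, SE 0.090), without overlap. Kif11, the motor that keeps the spindle bipolar, read 9.13, 9.46 and 9.99 in lung E20, against 10.67, 10.81 and 10.91 in lung E16, and fell by 1.29 (SE 0.086). In intestine Kif11 read 9.95, 10.22 and 10.34 at E20, against 9.76, 10.16 and 10.41 at E16, so the E20 range lay inside the E16 range (0.04, SE 0.086, limma adjusted p = 0.726). Kif2c, a microtubule depolymerase, stood at -1.46 in lung and -0.46 in intestine. Kif23, the motor of the centralspindlin complex, had the smallest lung difference of the 44 (-0.63, SE 0.076).

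Spindle assembly factors followed, with 4 of 5 that fell in the lung: Tacc3 (-1.41), Hmmr (-1.39), Aspm (-1.32) and Dlgap5 (-1.02). Nusap1, which bundles microtubules near chromosomes, lay below (-0.94). All 5 lay below in intestine too, from -0.54 (Dlgap5) to -0.26 (Nusap1). Cytokinesis genes had the smallest median difference of the roles in lung (-0.85), and 0 of 3 fell: Ect2, the activator of RhoA at the cleavage site (-0.99), Racgap1, its centralspindlin partner (-0.85), and Prc1, which bundles the central spindle (-0.75). With Kif23 these proteins act at the same place, the midzone of the late spindle. In intestine Racgap1 and Prc1 stood at 0.00 and 0.02, and Ect2 lay above (0.30, SE 0.094, limma adjusted p = 0.0041).

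Condensin compacts chromosomes and topoisomerase II untangles them. Of 5 such genes 4 fell in the lung: Ncapd2 (-1.37), Smc4 (-1.32), Ncaph (-1.11) and Smc2 (-1.02). Smc4, a core ATPase of condensin, read 8.09, 8.56 and 9.38 in lung E20, against 9.61, 9.97 and 10.33 in lung E16 (SE 0.19). In intestine Smc4 read 7.07, 8.05 and 9.26 at E20, against 8.55, 9.01 and 9.35 at E16, with overlap (-0.92, SE 0.19, limma adjusted p = 4.90e-05). Its arrays were the most spread of any gene here, with an SD of 0.74 in intestine E20. Top2a read 11.08, 11.45 and 11.74 in lung E20, against 12.14, 12.31 and 12.45 in lung E16, with no overlap (-0.90, SE 0.062). In intestine Top2a read 11.57, 11.76 and 11.95 at E20, against 11.82, 11.95 and 12.07 at E16 (-0.21, SE 0.062).

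Mki67 encodes Ki-67, the protein that coats mitotic chromosomes and marks cycling cells. It read 10.61, 11.05 and 11.30 in lung E20, against 11.61, 11.97 and 12.07 in lung E16. All lung E20 arrays were lower, yet the difference stayed under 2-fold (-0.94, SE 0.072, limma adjusted p = 3.26e-15). In intestine Mki67 read 11.73, 11.88 and 12.07 at E20, against 11.35, 11.63 and 11.68 at E16. It was the only gene of the 44 whose intestine E20 arrays were all above the E16 arrays (0.29, SE 0.072, limma adjusted p = 0.000348), which held for 17.3% of all genes, while for 12 others they were all below (20.3% of all genes). The organs' changes differed by -1.24 (SE 0.10, limma adjusted p = 4.19e-14).

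**Figure D5:**
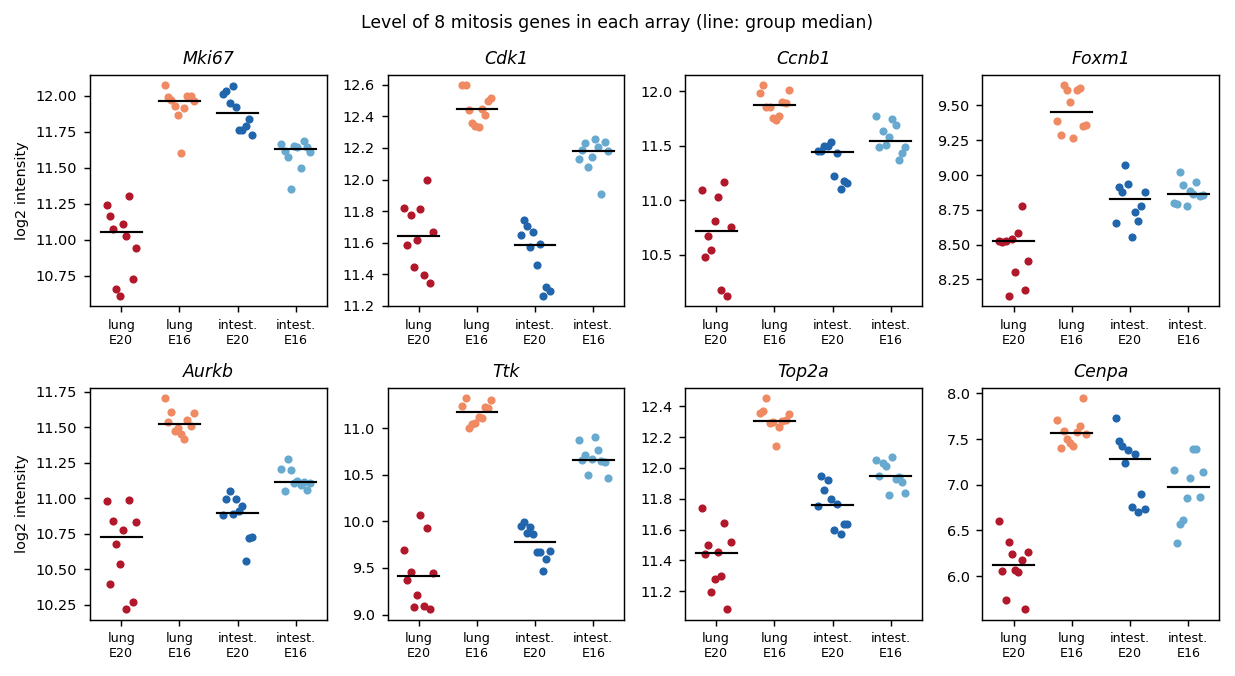
Log2 intensity of 8 mitosis genes in each array, 10 per group, with the group median as a line. For all 8 genes the lung E20 arrays lie below the lung E16 arrays, whereas in intestine Cdk1 and Ttk separate downwards at E20, Mki67 separates upwards and the others overlap.

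By size of the difference between the organs' changes, the 18 genes with at least a 2-fold difference came from every role except condensin and topoisomerase. They were 4 kinetochore genes (Cenpa, Spc24, Cenpe and Cenpf), 3 passenger genes (Incenp, Cdca8 and Birc5) and 3 cyclins or activators (Ccna2, Aurka and Plk1). The checkpoint gave 2 (Mad2l1 and Bub1b), anaphase 2 (Cdc20 and Espl1), and the kinesins (Kif11), spindle factors (Tacc3), cytokinesis (Ect2) and Mki67 gave 1 each.

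Between the organs, the order of the levels turned over with age. At E16 all 44 estimates were higher in lung than in intestine, 42 passed the adjusted p (23.8% of all genes), none lay below (40.2% of all genes), and for 31 every lung array was above every intestine array (8.23% of all genes). None reached 2-fold, against 2.13% of all genes that were higher and 3.0% lower by that rule. The median difference at E16 was 0.45, against -0.11 for all genes. Smc4 (0.93, SE 0.19), Mad2l1 (0.72, SE 0.11) and Incenp (0.69, SE 0.081) had the largest, and Spc25 (0.03) and Nuf2 (0.19) did not pass the adjusted p.

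At E20 the difference ran the other way for most genes. In lung 39 of 44 lay below intestine at the adjusted p alone (42.5% of all genes), with Smc4 above (0.53, SE 0.19, limma adjusted p = 0.0136). The share below was high for all genes as well. Cenpa was lower by at least 2-fold (-1.05, SE 0.13), 1 gene of 44 against 8.21% of all genes, and no gene was higher by that rule (7.91% of all genes). The arrays of 7 genes did not overlap, all lower in lung, as for 18.6% of all genes: Cenpa, Spc24 (-0.92), Mki67 (-0.90), Ccna2 (-0.83), Aurka (-0.74), Espl1 (-0.65) and Ncaph (-0.56). Without lung E20 replicates 1, 6 and 8, the arrays of 32 genes did not overlap, 42 lay below, none lay above, and 3 were lower by at least 2-fold. Those arrays had the highest mitosis means of lung E20, so leaving them out lowers the mean of that group. Shares of all genes were not counted without them, so these counts have no share to be set against. The median difference at E20 was -0.52, against -0.089 for all genes. Both organs' comparisons share the 4 groups of arrays, so the contrasts at E16 and E20 and the age changes are not independent of each other.

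For 15 of the 44 genes the array held further probe sets, 20 in all, 10 of them dimmer than the median of all values on the arrays. In lung 18 of these 20 had a difference below 0 and 11 fell, and in intestine 17 were below 0 and none fell. The lung change was below the intestine change for 16 of the 20, by at least 2-fold and past the adjusted p for 6. Shares over all probe sets were not counted. Of all genes, by their brightest probe sets, 4.63% fell in lung, 6.26% fell in intestine and 8.48% had a lower change in lung. The median difference of all genes was -0.0064 in lung and -0.086 in intestine. Probe sets of a gene disagreed in several cases. In lung, further probe sets of Incenp (0.13), Cdc20 (0.11, -0.04 and -0.71), Smc4 (-0.26), Tacc3 (-0.33) and Foxm1 (-0.44) did not fall although the brightest ones did. Conversely, those of Top2a (-1.35) and Racgap1 (-1.11) fell, where the brightest ones stayed under 2-fold. In intestine the second probe set of Ttk stood at -0.14, against -0.91 for its brightest. For the difference between the organs' changes, further probe sets of Tacc3 (-0.08) and Incenp (0.19) stood against -1.03 and -1.32 for their brightest ones.

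The other genes of the cell cycle were taken from listed sets. Of 80 further mitosis genes 40 fell in the lung and 0 rose (median -1.0), against 4.63% of all genes that fell and 7.15% that rose. The largest differences were those of Mis18a, a factor that readies centromeres for new Cenpa (-2.02, SE 0.10), Kif20b, a kinesin of cytokinesis (-1.86, SE 0.12), and Cenpk, a centromere protein (-1.82, SE 0.12). In intestine 10 of the 80 fell and 0 rose (median -0.49), against 6.26% of all genes that fell and 8.79% that rose. They were led by Cdc25b, a phosphatase that activates Cdk1 (-2.45, SE 0.17), Ska2, of the complex that holds microtubules at kinetochores (-1.33), and Anapc10, a subunit of the anaphase-promoting complex (-1.31). Cdc25b in lung stood at 0.07, and the organs' changes differed by 2.53 (SE 0.25), the reverse of the 44 genes. Mybl2, which encodes the MuvB partner B-Myb, stood at -1.26 in lung and 0.51 in intestine and differed by -1.77 (SE 0.096).

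DNA replication genes act earlier in the cycle. Of 46 measured 34 fell in the lung and 1, Orc4, rose (1.05), with a median of -1.15. Among all genes 4.63% fell and 7.15% rose there. The origin recognition subunit Orc1 (-2.45, SE 0.13), the replication initiator Mcm10 (-1.95, SE 0.070) and the polymerase epsilon subunit Pole2 (-1.69, SE 0.081) had the largest differences. In intestine 2 of 46 fell, Gins1 (-1.11) and the licensing inhibitor Gmnn (-1.11), with a median of -0.55. That share was below the 6.26% of all genes that fell in intestine. The organs' changes differed for 8 of 46, 7 of them lower in lung, against 8.48% of all genes lower and 9.13% higher. Of 20 G1 cyclins and E2F genes 4 fell in the lung, against 4.63% of all genes. They were Ccne1, cyclin E1 (-2.30, SE 0.10), E2f8 (-1.54), E2f7 (-1.2) and Ccne2 (-1.07). In intestine Tfdp2 (-1.41) and Ccne1 (-1.11) fell, where 6.26% of all genes fell.

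Of 18 inhibitors of the cycle and genes of quiescence, 5 rose in lung, against 7.15% of all genes. They were Gadd45g (3.43, SE 0.10), Cdkn1a, the Cdk inhibitor p21 (2.16, SE 0.14), Gadd45b (1.69, SE 0.077), Tob1 (1.48) and Cdkn2b (1.03). Rbl1, the pocket protein p107 and itself made in cycling cells, fell (-1.04), where 4.63% of all genes fell. In intestine 3 of 18 rose, Tob1 (1.89, SE 0.062), Cdkn1a (1.33, SE 0.14) and Rb1 (1.16), and Cdkn2d fell (-1.23). Among all genes 8.79% rose and 6.26% fell there. The changes of Gadd45g and Gadd45b were higher in lung by 2.73 (SE 0.14) and 1.84 (SE 0.11), and that of Cdkn1a did not reach 2-fold between organs (0.83).

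The labelled organs could be told by their regulators: Nkx2-1, of lung epithelium, was higher in lung than in intestine by 3.41 at E20 and 3.03 at E16, and Cdx2, of intestinal epithelium, had differences of -5.55 and -1.201. Markers of other cell types moved with age as well, and their part in the mitosis differences was not tested. Of 15 erythroid genes 6 fell in lung (median -0.87) and 11 in intestine (median -3.06), against 4.63% and 6.26% of all genes. Their mean ran from 8.63 to 9.59 in lung E20, against 10.20 to 10.74 in lung E16, and from 7.67 to 8.55 in intestine E20, against 10.42 to 11.57 in intestine E16. Of 14 epithelium genes 9 rose in lung (median 1.48) and 13 in intestine (median 3.12), against 7.15% and 8.79% of all genes. Their mean ran from 10.26 to 10.64 in lung E20, against 8.90 to 9.36 in lung E16, and from 11.42 to 11.79 in intestine E20, against 8.13 to 8.93 in intestine E16. The same shares of all genes stand beside each list below: 7.15% rose and 4.63% fell in lung, and 8.79% rose and 6.26% fell in intestine. Of 14 fibroblast and mesenchyme genes 4 rose in lung (median 0.34) and 4 fell in intestine (median -0.67). Of 9 endothelium genes 4 rose in lung (median 0.91), and none rose or fell in intestine (median 0.19). Of 11 neuron and glia genes 4 fell in lung (median -0.47) and 8 in intestine (median -1.33). Their mean ran from 6.78 to 7.27 in lung E20, against 7.504 to 8.11 in lung E16, and from 8.65 to 9.55 in intestine E20, against 9.94 to 10.32 in intestine E16. Of 9 cartilage genes 4 fell in lung (median -0.51) and 5 in intestine (median -1.0). Their mean ran from 6.61 to 7.31 in lung E20, against 8.35 to 8.78 in lung E16, and from 6.85 to 7.17 in intestine E20, against 7.92 to 8.32 in intestine E16. Of 9 mesothelium genes 2 rose and 3 fell in lung, and 2 rose and 4 fell in intestine. Of the remaining lists, 2 of 10 smooth muscle genes rose in lung and none in intestine. Of 14 liver genes 2 fell in lung and 4 rose in intestine. In intestine 2 of 7 cardiac muscle genes rose. There 1 of 11 exocrine pancreas genes rose, near the share of all genes, and 3 fell. No detection calls were used, so a list cannot be called absent: erythroid genes below the median of all values numbered 4 of 15 in lung E20, against 1 of 15 in lung E16, and 7 of 15 in intestine E20, against 1 of 15 in intestine E16. Epithelium genes were above that median throughout at E20 in both organs, with 2 of 14 below it in lung E16 and 6 of 14 in intestine E16.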

How the data were processed

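Lung and whole intestine of Wistar rat embryos at E20 and E16 were measured on 40 arrays, 10 per group, grouped by their titles. The values are the intensities deposited in the authors' series table, linear and normalized with RMA per the submitters' processing notes, which give no version. Neither the labels nor the table say whether the organs were normalized in 1 run, and detection calls were not used. Intensities ran from 6.65 to 39901 over 31099 probe sets, with array medians from 220 to 264, and the 2 most similar arrays correlated at 0.995, so none was counted as a copy. Here log2 of the deposited intensities was taken, without a further normalization. Arrays have no depth, and their number limits the precision.

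Probe sets were named from GEO's platform annotation, and those with 1 gene symbol were kept, the brightest for each of 14217 genes. All 44 measured mitosis genes had an Entrez ID in the RefSeq table of GRCr8 with the same symbol. Group means were fitted with limma 3.58.1 (lmFit and eBayes, R 4.3.3) over all 40 arrays with no covariate, the 5 contrasts were tested two-sided, and p-values were adjusted by Benjamini-Hochberg over all genes. The script was tested on simulated data. The members and all lists were chosen with earlier results of these data known. Every measured member may be named. Full values are given for Mki67, Cdk1, Ccnb1, Aurkb, Top2a and Foxm1 and, per contrast, for up to 5 members with the largest change past the threshold, or 3 where none passed. Up to 3 such genes lead the account of each other list, and further genes named there, with Nkx2-1 and Cdx2, were chosen after their values were seen. Promoter sequences are RefSeq's (GRCr8).

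Replicate numbers recur in the 4 groups. Over deviations from group means, arrays of the same number correlated between organs at -0.14 to 0.39 (E20) and -0.047 to 0.70 (E16). The correlation was over 0.1 for 4 of 10 pairs at E20 and 7 of 10 at E16. Between ages, where arrays cannot share an embryo, it was over 0.1 for 5 of 10 same-number pairs in lung and 5 of 10 in intestine. For 2 of 10 lung arrays at E20 and 5 of 10 at E16, the best match in intestine had the same number. The labels do not say whether such arrays share an embryo, so no pairing was assumed. A shared embryo or batch was not tested. Alternatives covered normalization, the choice of probe sets, the spread model, the threshold, blocks and the left-out arrays.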

Additional observations from a re-analysis of the deposited data

Results flagged for a closer look

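Single arrays stood apart from the other 9 of their group in 6 of 180 sets of values, where chance at 1 in 20 would give about 9.0. In lung E16, Mki67 was lowest in replicate 6 at 11.60, against 11.87 in the next array, Cdca8 was lowest in the same replicate at 9.93, against 10.22, and Ccna2 was lowest in replicate 4 at 11.64, against 11.80. In intestine E16, replicate 8 was lowest for Cdk1 at 11.91, against 12.08, and for Mad2l1 at 9.13, against 9.56, and replicate 1 was lowest for Ube2c at 11.83. Of these arrays, intestine E16 replicate 8 carried raised exocrine pancreas genes (mean 8.21, against a group median of 6.74).

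For 18 genes the test of the lung change minus the intestine change passed the adjusted p and 2-fold. The values were -1.69 for Cenpa, -1.44 for Spc24, -1.38 for Mad2l1 and Ccna2, -1.32 for Kif11 and Incenp, -1.30 for Aurka, -1.29 for Ect2, -1.24 for Mki67 and -1.23 for Cdca8. They were -1.18 for Cenpe and Birc5, -1.13 for Cenpf, -1.09 for Cdc20, -1.08 for Bub1b, -1.05 for Plk1, -1.04 for Espl1 and -1.03 for Tacc3. For all 18 the change was lower in lung than in intestine, and each lung E20 array was below each lung E16 array. In intestine, every E20 array was below every E16 array for Bub1b alone of the 18, and above for Mki67 alone.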

How the results depend on the processing

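The counts as reported were 33 genes lower at E20 in lung, 0 in intestine, 18 with a lower change in lung than in intestine, 1 lower in lung at E20 and 0 higher in lung at E16. Blocks by replicate number, fixed or random (correlation 0.107), gave 33, 0, 18, 1 and 0, so no count changed. A trend of the spread with intensity, or leaving out cross-hybridising probe set types, gave the same counts. Quantile normalization gave 33, 0, 17, 0 and 0, centring of arrays on their medians 37, 0, 25, 1 and 1, array weights 35, 0, 22, 2 and 0, genes above the overall median only 32, 0, 17, 0 and 0 (without Cenpa), and the mean of all probe sets 29, 0, 15, 1 and 0. A test against a 2-fold change gave 23, 0, 5, 0 and 0, a 1.5-fold minimum 44, 6, 38, 14 and 9, and no fold minimum 44, 29, 42, 39 and 42, with 2 genes higher in intestine at E20 and 1 higher in lung at E20. The fold limit therefore sets these counts more than the test does. Centring moved the median of all genes by 0.15 in the E16 organ contrast and by -0.13 in the difference of changes.

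Chosen after seeing the data, leaving out the 11 arrays with raised markers of another tissue or of mesothelium gave 39, 0, 27, 4 and 0, and leaving out the 3 of lung E20 gave 38, 0, 25, 3 and 0. The 3 of lung E20, also among the 11, had the highest mitosis means of their group. Leaving them out therefore lowers the mean of that group. Leaving out 1 array at a time gave 29 to 35 genes lower in lung (lowest without lung E20 replicate 9, highest without replicate 8), 0 to 1 in intestine, 17 to 22 for the difference, 0 to 1 lower in lung at E20 and 0 throughout for the rest.

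Signs turned only for differences near 0 that never passed the test in either setting. With quantile normalization the intestine differences of Birc5 (-0.0029), Prc1 (-0.024) and Racgap1 (-0.027) and the E16 organ difference of Spc25 (-0.0084) turned. Centring turned Aurka in intestine (0.013), and the mean of probe sets turned Kif11 (-0.015) and Mad2l1 (-0.14) in intestine and Kif23 between organs at E20 (0.10). Array weights turned Birc5 (-0.059), and leaving out those 11 arrays turned Birc5 (-0.024) and, between organs at E20, Cdk1 (-0.0018). With 1 array left out, the intestine values that turned in some fits ran from -0.018 to 0.043 for Birc5, from -0.0069 to 0.066 for Kif11, from -0.010 to 0.047 for Prc1 and from -0.033 to 0.027 for Racgap1. The causes were not tested.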

Other observations

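Cdc25b was the gene of the further mitosis list whose difference between the organs' changes stood against the rest. Its intestine level fell at E20 (-2.45, SE 0.17) while its lung level stood at 0.07, and at E20 it was higher in lung than in intestine by 1.65 (SE 0.17). The phosphatase acts on Cdk1, whose age changes in the organs did not differ by the test (limma adjusted p = 0.110). At E16 Cdk1 lay above in lung relative to intestine (0.30, SE 0.070, limma adjusted p = 0.000329). A link between the genes was not tested. Among replication genes Pola2, a subunit of DNA polymerase alpha, was higher in lung at E20 by 1.53 (SE 0.062), whereas Orc1 differed by -1.24 (SE 0.13). Myc, a driver of growth and G1 entry, was higher in lung than in intestine at E16 by 1.16 (SE 0.075).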
